A study of Mus musculus with 10 samples.

Results

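The dual-specificity MAP kinase phosphatases are enzymes that switch off MAP kinases by removing phosphate from both the threonine and the tyrosine of the activation loop. 9 of them, Dusp1, Dusp2, Dusp4, Dusp5, Dusp6, Dusp7, Dusp8, Dusp10 and Dusp16, were looked up by symbol in a table of 57010 gene identifiers, and all 9 were found. All 9 were also among the 12455 genes expressed highly enough to be tested. The study sequenced mRNA from macrophages that had been differentiated from mouse bone marrow over 7 days in 20 ng/mL M-CSF, the growth factor that drives this lineage. It asked how the cells respond to being squeezed and whether WASp, the actin-nucleation promoting factor of blood cells encoded by Was, alters that response. Squeezing meant 1 h under a ceiling held 3 µm high by PDMS micropillars.

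The 4 groups crossed genotype with confinement. Wild-type (WT) macrophages gave 2 unconfined libraries, numbered 1 and 3 in the labels, and 3 confined libraries, numbered 2, 3 and 6. Macrophages from WASp knockout (WKO) marrow gave 2 unconfined libraries, numbered 1 and 3, and 3 confined libraries, numbered 1, 2 and 5. All cells had the same M-CSF dose and length of culture, and each library started from 5 ng of total RNA. The labels give no strain, age or sex for the marrow donors. They do not say whether libraries of a group came from separate animals or cultures, so the p-values measure the spread between these libraries, which may be technical. Whether the unconfined controls passed through the confinement device is likewise not stated there.

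Phosphatases of this family sort by where they act and on which kinase. Dusp1, Dusp2, Dusp4 and Dusp5 sit in the nucleus and are encoded by genes that MAP kinase signalling itself switches on, Dusp6 and Dusp7 are cytoplasmic and selective for ERK, and Dusp8, Dusp10 and Dusp16 act mainly on JNK and p38. In macrophages Dusp1 is best known as the brake on p38 and JNK that limits cytokine output after microbial stimuli. Transcripts of several family members are short-lived, so their levels can turn over within an hour.

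The libraries held 13295701 to 19329908 reads counted on genes. Was, the targeted gene, had 1308 and 1639 normalized reads in unconfined WT, 1570 to 1649 in confined WT, 141 and 154 in unconfined WKO, and 96.9 to 125 in confined WKO and was thus lower in every WKO library than in every WT library. The residual reads do not show whether protein remained. 8 macrophage markers summed to between 181744 and 314547 normalized reads per library and each had at least 3 reads in some library of every group. 5 T and NK cell markers summed to at most 8.88, 5 dendritic cell markers to 10.4 to 82.9, 4 endothelial markers to 63.0 to 154, and 4 mast cell and basophil markers to 12.0 to 100.4. Stromal, neutrophil and progenitor, and B-lineage markers, and the macrophage markers themselves, differed between groups, and their values are given with the comparisons. A count of 3 reads, below which a value was treated as not reliably detected, corresponded to 2.35 to 3.59 normalized reads depending on the library.

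Dusp5 encodes the nuclear phosphatase selective for ERK, which both inactivates the kinase and holds it in the nucleus. In GENCODE annotation of GRCm38 it occupies chromosome 19 from 53529109 to 53542431 on the plus strand, with 4 exons (ENSMUSG00000034765); positions here and below are those of the main transcript. It was counted at 231 and 373 normalized reads in unconfined WT and at 1717, 1683 and 2012 in confined WT. In WKO macrophages it was at 184 and 232 unconfined and at 1896, 1290 and 3911 confined. In both genotypes every confined library was above every unconfined one, with the highest value in confined WKO replicate 5. Mean levels were 5.97 times higher with confinement in WT and 11.4 times higher in WKO. The log2 fold changes were 2.61 in WT (95% confidence interval 1.83 to 3.39, limma adjusted p = 0.00513) and 3.35 in WKO (2.57 to 4.13, adjusted p = 0.000908). By p-value Dusp5 ranked 26th of 12455 genes in WT and 11th in WKO, ahead of every other member. The bulk libraries cannot separate more transcript per cell from a larger share of cells that carry it, here and for every member below. The call in WKO held without any single library, and the call in WT was lost without unconfined WT replicate 1 (2.27, adjusted p = 0.0865). The main Dusp5 transcript shares 547 bases, 22.1% of its length, with the antisense gene AC137853.2, which had 0 to 8 reads in each library. Since the counting strand is not given in the sources used here, reads of this overlap cannot be told apart.

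Dusp1 is the broad nuclear phosphatase for p38, JNK and ERK and was, per transcript length, the most abundant member in every library. It lies on chromosome 17 from 26505590 to 26508519 on the minus strand, with 4 exons (ENSMUSG00000024190). Its normalized reads were 1666 and 1534 in unconfined WT and 5091, 6370 and 11783 in confined WT. The WKO values were 1788 and 3010 unconfined and 9910, 4751 and 13889 confined. The groups did not overlap in either genotype, and the confined libraries were spread widely, with the highest values in WT replicate 6 and WKO replicate 5. Confined means were 4.84 times the unconfined mean in WT and 3.97 times in WKO. The log2 fold changes were 2.18 (1.27 to 3.09, adjusted p = 0.0290) in WT and 1.90 (1.00 to 2.81, adjusted p = 0.0436) in WKO. In WKO edgeR on the recovered reads gave an adjusted p of 0.0572. The call in WT was lost without unconfined WT replicate 1 (adjusted p = 0.172) or 3 (0.230), or without confined WT replicate 3 (0.0818) or 6 (0.0955). The call in WKO was lost without unconfined WKO replicate 1 (1.53, adjusted p = 0.402) or 3 (2.28, 0.126), without confined WKO replicate 5 (1.56, 0.0559), and without either unconfined WT library or confined WT replicate 2 or 3 (0.0577 to 0.0774).

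Dusp2, a nuclear phosphatase found mainly in blood cells that acts on ERK and p38, had the largest change of any member in WT. It lies on chromosome 2 from 127336159 to 127338376 on the plus strand, with 4 exons (ENSMUSG00000027368). In WT it was at 40.8 and 87.3 normalized reads unconfined and at 529, 995 and 1144 confined. In knockout cells it was at 77.9 and 215 unconfined and at 1431, 359 and 1295 confined. Confined WKO replicate 2 was the lowest of the 6 confined libraries, yet still above every unconfined one. The mean rose 13.9-fold in WT and 7.03-fold in WKO, and by log2 fold change Dusp2 ranked 14th of 12455 genes in WT and 49th in WKO. The log2 fold change was 3.80 in WT (2.49 to 5.10, adjusted p = 0.00970). For WKO it was 2.74 (1.44 to 4.05, adjusted p = 0.0433), and edgeR on the recovered reads gave an adjusted p of 0.0539. The call in WT was lost without unconfined WT replicate 1 (adjusted p = 0.151) or 3 (0.0556) or confined WT replicate 3 (0.0501). The call in WKO was lost without unconfined WKO replicate 1 (2.02, adjusted p = 0.420) or 3 (3.47, 0.0707), without confined WKO replicate 5 (2.46, 0.0657), and without any 1 of the 5 WT libraries (0.0594 to 0.0756).

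Dusp4, the nuclear phosphatase for ERK and JNK, was the member of this class whose change did not pass in the limma fit of all libraries, although other fits called it. It lies on chromosome 8 from 34807297 to 34819894 on the plus strand, with 4 exons (ENSMUSG00000031530). It was at 707 and 726 normalized reads in unconfined WT and at 1127, 1285 and 1817 in confined WT. The WKO libraries were at 330 and 325 unconfined and at 760, 605 and 1770 confined. The confined values lay above the unconfined ones in both genotypes, and confined WKO replicate 5 stood far above the other two. The log2 fold changes were 0.95 in WT (0.18 to 1.71, adjusted p = 0.287) and 1.51 in WKO (0.74 to 2.28, adjusted p = 0.0574). Without confined WKO replicate 5 the change in WKO was 1.05 and passed (adjusted p = 0.0144), as it did without replicate 1 (adjusted p = 0.0264) or 2 (0.0211). DESeq2 (1.67, adjusted p = 0.0151) and limma with array weights (1.02, adjusted p = 0.0121) also called Dusp4 in WKO. Over all genes in WKO, the fits without confined WKO replicate 5, 1 and 2 called 240, 1043 and 194. DESeq2 called 486 and array weights 1735, against 214 in the limma fit of all libraries. Dusp4 passed in 6 of 22 alternatives in WKO. The change in WT passed without confined WKO replicate 5 (adjusted p = 0.0114) and in a fit of only the WT libraries (0.0302). Over all genes in WT these fits called 397 and 455, against 144 in the fit of all libraries. Dusp4 passed in 3 of 22 alternatives in WT. The main fit uses 1 residual variance per gene for all groups, so leaving out a library of 1 genotype can alter calls in the other, here and for every member.

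**Figure D1:**
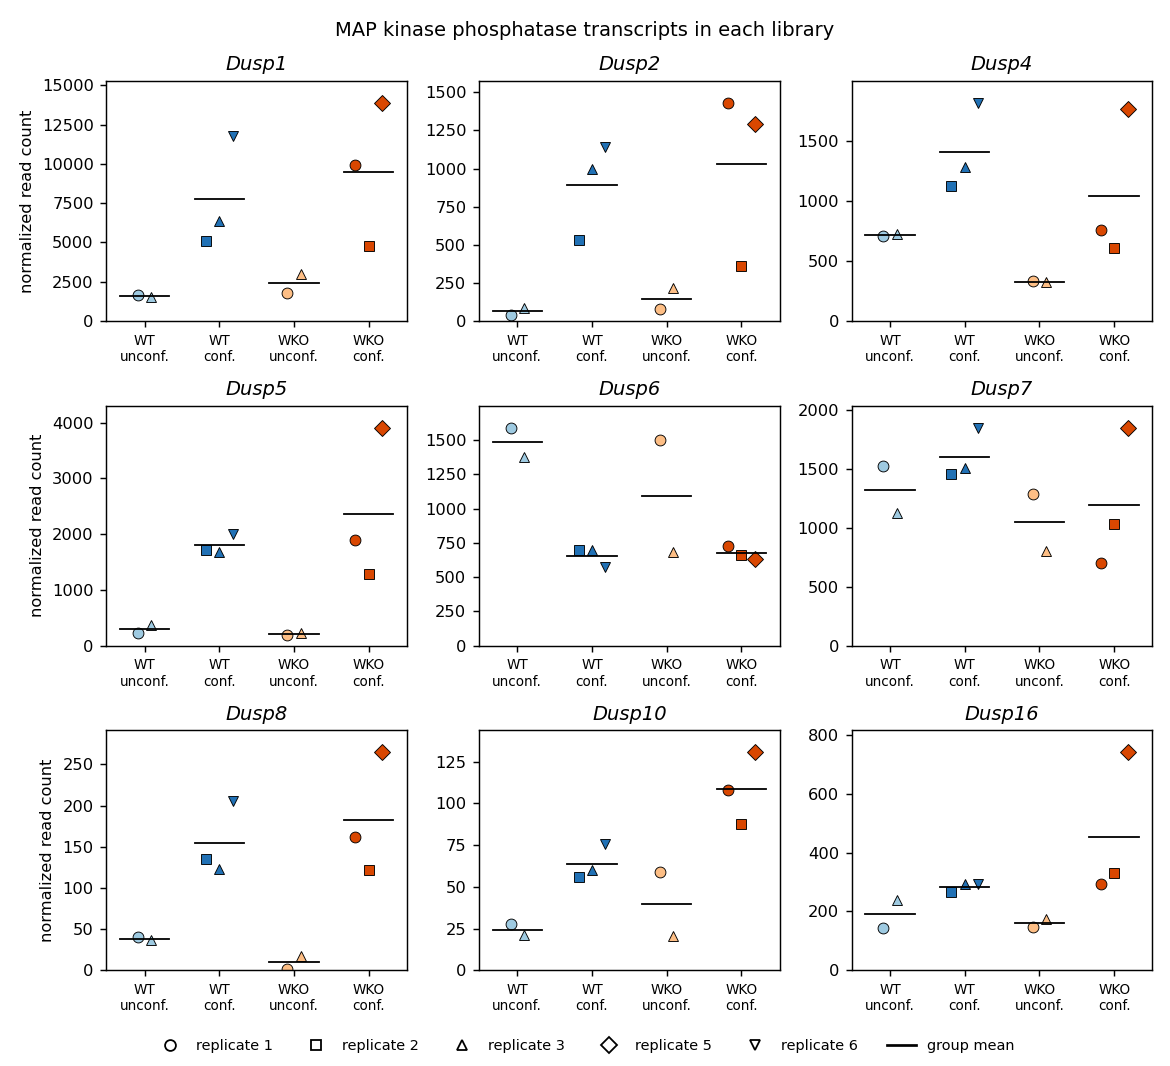
Normalized read counts (vertical axis, linear, from 0 in each panel) of the 9 phosphatase genes in the 4 groups (horizontal axis). Points are libraries and bars are group means. Confined libraries of Dusp1, Dusp2, Dusp4 and Dusp5 lie above all unconfined libraries of the same genotype, and those of Dusp6 lie below in WT, whereas Dusp7 overlaps in both genotypes.

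Dusp6 went the other way. It encodes the cytoplasmic phosphatase that gives ERK signalling its classical negative feedback, and it lies on chromosome 10 from 99263231 to 99267488 on the plus strand, with 3 exons (ENSMUSG00000019960). It was at 1590 and 1379 normalized reads in unconfined WT and at 698, 697 and 571 in confined WT. In knockout cells it was at 1500 and 684 unconfined and at 724, 663 and 635 confined. The 6 confined libraries of both genotypes fell within a narrow band, and unconfined WKO replicate 3 lay inside that band while replicate 1 was at the unconfined WT level. In WT the unconfined mean was 2.26 times the confined mean, a log2 fold change of -1.18 (-1.73 to -0.63, adjusted p = 0.0481). In WKO the change was -0.59 (-1.14 to -0.04, adjusted p = 0.318), and without unconfined WKO replicate 3 it was -1.15 (adjusted p = 0.0147), and without replicate 1 it was -0.024 (0.982). The call in WT was lost without any 1 of the 5 WT libraries (adjusted p from 0.129 without confined replicate 3 to 0.298 without unconfined replicate 1) or without confined WKO replicate 2 (0.0729). edgeR on the recovered reads gave an adjusted p of 0.0581 for it.

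Dusp7, the other cytoplasmic phosphatase for ERK, did not follow Dusp6. It lies on chromosome 9 from 106368632 to 106375724 on the plus strand, with 3 exons (ENSMUSG00000053716). Its normalized reads were 1525 and 1129 in unconfined WT, 1458, 1513 and 1847 in confined WT, 1292 and 808 in unconfined WKO, and 705, 1036 and 1854 in confined WKO. The groups overlapped in both genotypes. The log2 fold changes with confinement were 0.28 in WT (-0.43 to 1.00, adjusted p = 0.788) and 0.11 in WKO (-0.60 to 0.83, adjusted p = 0.912), so these intervals leave room for a change of up to 1.00 in WT and 0.83 in WKO.

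Among the 3 phosphatases that act on JNK and p38, Dusp8 had the widest range. It lies on chromosome 7 from 142079490 to 142095272 on the minus strand, with 7 exons (ENSMUSG00000037887). In WT it was at 40.8 and 36.5 normalized reads unconfined and at 135, 123 and 206 confined. In WKO it was at 1.97 and 17.6 unconfined, which correspond to 2 and 17 reads, and at 162, 122 and 265 confined. The first of these is under the 3-read level, so the size of the change in WKO depends on few reads. The ratio of means was 4.00 in WT and 18.8 in WKO. The log2 fold change was 4.56 in WKO (3.23 to 5.89, adjusted p = 0.00343) and 1.94 in WT (0.61 to 3.27, adjusted p = 0.195). Without unconfined WKO replicate 1 the WKO value was 3.24 (adjusted p = 0.0197) and without replicate 3 it was 5.88 (adjusted p = 0.000367). The WT change passed without unconfined WKO replicate 1 (adjusted p = 0.0312) or 3 (0.0385), in a fit of only the WT libraries (0.00828) and with DESeq2 (2.00, adjusted p = 0.00108). The WKO change did not pass in a fit of only the WKO libraries (adjusted p = 0.0678). Over all genes the fit of only the WT libraries called 455 in WT and DESeq2 333, against 144 in the limma fit of all libraries. The fit of only the WKO libraries called 33 in WKO, against 214. The WT change of Dusp8 passed in 4 of 22 alternatives.

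Dusp10 and Dusp16 were both higher in every confined library than in every unconfined library of the same genotype, but neither passed in the limma fit of all libraries. In WKO both passed with DESeq2 (Dusp10 1.44, adjusted p = 0.0285, and Dusp16 with adjusted p = 0.00127) and with array weights (1.35, adjusted p = 0.0255, and 1.12, adjusted p = 0.00503). Dusp10 lies on chromosome 1 from 184034381 to 184075636 on the plus strand with 4 exons (ENSMUSG00000039384), and Dusp16 on chromosome 6 from 134715473 to 134792625 on the minus strand with 7 exons (ENSMUSG00000030203). Dusp10 was at 27.5 and 21.1 normalized reads in unconfined WT, at 55.7, 59.8 and 75.5 in confined WT, at 59.2 and 20.6 in unconfined WKO and at 108, 87.4 and 131 in confined WKO. Its log2 fold changes were 1.35 in WT (0.46 to 2.25, adjusted p = 0.175) and 1.59 in WKO (0.69 to 2.48, adjusted p = 0.0882). Without unconfined WKO replicate 1, the higher of that pair, the WKO value was 2.32 (adjusted p = 0.0445). Dusp16 was at 145 and 239 in unconfined WT, at 265, 292 and 292 in confined WT, at 147 and 173 in unconfined WKO and at 292, 331 and 740 in confined WKO. Confined WKO replicate 5 stood well above the rest. The log2 fold changes of Dusp16 were 0.60 in WT (-0.15 to 1.34, adjusted p = 0.529) and 1.37 in WKO (0.63 to 2.12, adjusted p = 0.0763). The latter passed without confined WKO replicate 1 (adjusted p = 0.0172). That fit called 1043 of all genes in WKO, DESeq2 486 and array weights 1735, against 214 in the limma fit of all libraries. In WKO Dusp10 passed in 3 and Dusp16 in 4 of 22 alternatives, and in WT both passed in 0.

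Counted together, confinement changed 4 of the 9 members in WT, against 1.16% of all genes tested. 3 of them rose (Dusp1, Dusp2 and Dusp5), against 0.891% of all genes, and 1 fell (Dusp6), against 0.265%. In WKO 4 members changed, against 1.72% of all genes, and all 4 rose (Dusp1, Dusp2, Dusp5 and Dusp8), against 1.49%, while 0.233% of all genes fell. Dusp1, Dusp2 and Dusp5 passed in both genotypes in the same direction, which 0.723% of all genes did for higher and 0.0482% for lower levels. Without regard to the test, 7 members lay wholly higher in confined WT libraries, against 18.3% of all genes, and 7 in confined WKO libraries, against 14.5%. In WT 1 member lay wholly lower, against 17.7% of all genes, and in WKO 0 did, against 13.8%. The median log2 fold change of the 9 was 1.35 in WT and 1.59 in WKO, where the medians over all genes tested were -0.01 in both. By class and with limma, 3 of 4 nuclear phosphatases rose in each genotype. Of the cytoplasmic pair 1 fell in WT and neither passed in WKO, and of the 3 acting on JNK and p38, 0 passed in WT and 1 rose in WKO. At an unadjusted p below the threshold, limma had 7 of the 9 members in WT, against 12.2% of all genes, and 8 in WKO, against 14.1%; in WT these included Dusp8 and Dusp10. edgeR on the recovered reads called 3 members in WT (Dusp1, Dusp2 and Dusp5) and 2 in WKO (Dusp5 and Dusp8). DESeq2 called 5 in WT, adding Dusp8 to the 4 of limma, and 7 in WKO, adding Dusp4, Dusp10 and Dusp16. The class counts of the JNK and p38 phosphatases are thus those of limma, and were 1 in WT and 3 in WKO with DESeq2. The nuclear count in WKO also depended on the test. There edgeR called Dusp5 alone of the 4 (Dusp1 adjusted p = 0.0572, Dusp2 0.0539), and DESeq2 called all 4. In WT the nuclear count was 3 with each test. Over all genes edgeR called 116 in WT and 186 in WKO, and DESeq2 called 333 and 486, where limma called 144 and 214.

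Markers of other cells were read in the same libraries. 10 stromal markers summed to 792 to 1658 normalized reads in unconfined WT, 172 to 706 in confined WT, 2157 to 2447 in unconfined WKO and 719 to 9051 in confined WKO. 10 neutrophil and progenitor markers summed to 6891 to 10837, 2545 to 7933, 24792 to 29830 and 6971 to 27924 in the same order. 7 B-lineage markers summed to 810 to 874, 410 to 793, 4047 to 4417 and 1572 to 5198. Of the stromal markers 1 stayed under 3 reads in all libraries of unconfined WT, 1 in unconfined WKO, 2 in confined WT and 0 in confined WKO, and of the B-lineage markers 1 did so in each group. The macrophage markers summed to 181744 to 209462 in confined WT and 253597 to 314547 in confined WKO, without overlap. With confinement limma called 1 of 4 tested B-lineage markers lower in WT and 1 of 8 macrophage markers higher in WKO. The part of these cells in the phosphatase changes was not tested.

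**Figure D2:**
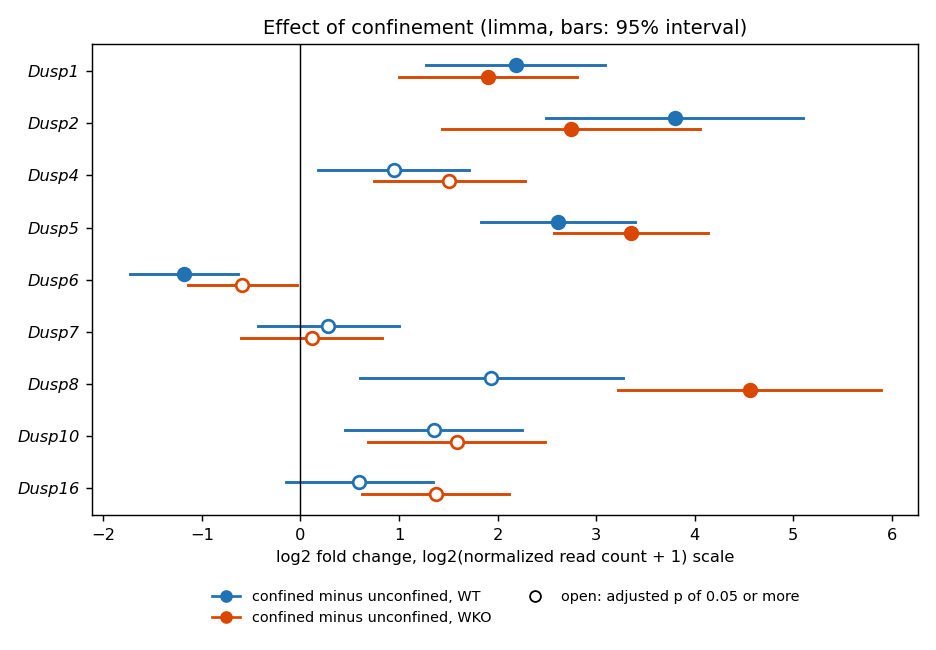
Log2 fold change with confinement (horizontal axis) for each of the 9 genes in WT and in WKO macrophages. Points are estimates, bars are 95% confidence intervals, and filled points passed at an adjusted p of 0.05. Dusp1, Dusp2 and Dusp5 are filled in both genotypes, Dusp6 in WT and Dusp8 in WKO.

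The 250 bases before the RefSeq start site of Dusp5, Dusp1, Dusp2, Dusp8 and Dusp6, the 5 members whose change with confinement passed in at least 1 genotype, are shown 5′ to 3′ on the gene's own strand, on GRCm38.p6. Capitals mark the matches to a CArG box, the site of the transcription factor SRF, and to the cAMP-response element or its core. The window of Dusp5 is chr19:53528895-53529144 on the plus strand, that of Dusp1 chr17:26508473-26508722 on the minus strand, that of Dusp2 chr2:127335909-127336158 on the plus strand, that of Dusp8 chr7:142095285-142095534 on the minus strand, and that of Dusp6 chr10:99262981-99263230 on the plus strand. The RefSeq starts are not all those of the GENCODE transcripts given above, so the Dusp5 and Dusp1 windows reach into those transcripts and the Dusp8 window stops short of its transcript. The Dusp2 and Dusp6 windows hold no match to either motif.
Dusp5: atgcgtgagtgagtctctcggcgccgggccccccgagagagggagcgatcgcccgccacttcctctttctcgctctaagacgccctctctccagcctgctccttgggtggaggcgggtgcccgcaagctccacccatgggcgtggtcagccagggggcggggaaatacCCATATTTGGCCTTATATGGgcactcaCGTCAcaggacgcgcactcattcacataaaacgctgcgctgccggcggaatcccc
Dusp1: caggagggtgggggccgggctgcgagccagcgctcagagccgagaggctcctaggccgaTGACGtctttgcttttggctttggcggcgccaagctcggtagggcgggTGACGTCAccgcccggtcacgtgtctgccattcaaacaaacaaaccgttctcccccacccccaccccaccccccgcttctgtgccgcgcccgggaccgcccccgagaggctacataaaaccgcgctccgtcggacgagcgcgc
Dusp2: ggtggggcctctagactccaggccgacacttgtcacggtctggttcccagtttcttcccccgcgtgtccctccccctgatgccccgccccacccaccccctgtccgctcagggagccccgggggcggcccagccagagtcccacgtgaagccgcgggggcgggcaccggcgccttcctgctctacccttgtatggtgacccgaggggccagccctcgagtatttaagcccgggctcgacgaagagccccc
Dusp8: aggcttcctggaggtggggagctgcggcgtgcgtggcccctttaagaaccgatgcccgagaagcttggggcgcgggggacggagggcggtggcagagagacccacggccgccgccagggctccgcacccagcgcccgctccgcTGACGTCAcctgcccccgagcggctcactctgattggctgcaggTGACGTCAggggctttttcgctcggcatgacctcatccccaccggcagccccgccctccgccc
Dusp6: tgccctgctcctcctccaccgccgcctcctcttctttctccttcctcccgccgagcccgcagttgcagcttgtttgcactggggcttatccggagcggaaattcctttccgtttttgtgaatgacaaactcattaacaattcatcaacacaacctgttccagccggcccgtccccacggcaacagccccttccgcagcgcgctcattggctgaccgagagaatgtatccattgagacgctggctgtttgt

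8 of the 9 members had an upstream window in the RefSeq table, which holds 32851 windows, all cut to the same 250 bases. Both strands were searched for 7 motifs. A full cAMP-response element, TGACGTCA, was present in Dusp1 once and in Dusp8 at 2 places, and in 1.55% of all windows. Its core TGACG, which also lies inside the full element, was in 4 of the 8 windows (Dusp1, Dusp5, Dusp8 and Dusp16) and in 17.8% of all. Dusp5 had 2 CArG boxes end to end, CCATATTTGG and CCTTATATGG, and was the only member with one, against 1.47% of all windows. The Sp1 site GGGCGG was in 6 of 8 windows and in 32.7% of all; it is not capitalised above. No member window held the AP-1 site TGANTCA (6.75% of all), the NF-kB site (7.25%) or the ETS core CCGGAA (12.0%). These are matches of letters only, and binding of any factor was not measured. The 8 member windows were 56.4% (Dusp6) to 77.2% (Dusp7) G and C, and the median of all windows was 52.4%. The uncalled Dusp10 and Dusp16 were at 59.6% and 68.4%, within the range of the called members.

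Most members shared a compact gene structure. 77.8% of them (7 of 9) had at most 4 exons in their main transcript, where 19.3% of the 11376 tested protein-coding genes did, and the median was 4 exons against 9. The exceptions, Dusp8 and Dusp16, had 7 each. The 3′ untranslated regions of 8 members held at least 1 copy of the AU-rich pentamer ATTTA, a sequence found in unstable mRNAs, compared with 67.4% of the tested coding genes. Dusp7 was the member without one, and Dusp4, Dusp10 and Dusp16, also uncalled by limma, had 2, 3 and 3 copies. The longer AU element TTATTTATT was present in Dusp1 (2 copies) and Dusp8 (1 copy), and in 7.41% of the tested coding genes. RNA stability was not measured.

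Because the genes differ in transcript length, their levels were compared with each other as normalized reads per kilobase of the main transcript. In unconfined WT macrophages Dusp1 led at 804 ± 47.1 (SD, n = 2), followed by Dusp6 at 531 ± 53.4, Dusp7 at 413 ± 87.2, Dusp4 at 262 ± 5.09 and Dusp5 at 122 ± 40.7. Dusp2 (39.6 ± 20.3) and Dusp16 (28.5 and 46.8 in the 2 libraries) overlapped, and so did Dusp10 (8.71 ± 1.63) and Dusp8 (8.05 ± 0.645). In confined WT macrophages the order was Dusp1 at 3893 ± 1785 (SD, n = 3), Dusp5 at 730 ± 73.0, Dusp2 at 550 ± 198, Dusp4 at 514 ± 132, Dusp7 at 500 ± 65.5 and Dusp6 at 234 ± 26.1, with Dusp16, Dusp8 and Dusp10 at 55.5 ± 3.13, 32.2 ± 9.29 and 22.8 ± 3.74. Dusp2, Dusp4 and Dusp7 were not separable there. Dusp6 thus moved from the second place to the sixth, and Dusp5 from the fifth to the second.

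In WKO macrophages Dusp1 also led per kilobase in both states. Unconfined WKO had Dusp1 at 1206 ± 434 (SD, n = 2), Dusp6 at 391 ± 206, Dusp7 at 327 ± 107, Dusp4 at 119 ± 1.12, Dusp2 at 90.5 ± 59.8, Dusp5 at 84.3 ± 13.7, Dusp16 at 31.4 ± 3.66, Dusp10 at 14.3 ± 9.76 and Dusp8 at 2.03 ± 2.29. Confined WKO had Dusp1 at 4782 ± 2302 (SD, n = 3), Dusp5 at 957 ± 555, Dusp2 at 636 ± 361, Dusp4 at 381 ± 231, Dusp7 at 373 ± 184, Dusp6 at 241 ± 16.3, Dusp16 at 89.0 ± 48.7, Dusp10 at 39.0 ± 7.74 and Dusp8 at 38.1 ± 15.3. Dusp5, Dusp2, Dusp4, Dusp7 and Dusp6 did not keep one order across the 3 confined libraries. In unconfined WKO replicate 3 Dusp7 was above Dusp6 and Dusp2 above Dusp4, the reverse of replicate 1.

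As shares of the summed per-kilobase level of the 9 genes, Dusp6 made up 23.0 to 24.7% in unconfined WT and 2.27 to 5.21% in confined WT. In WKO its share was 10.2 to 25.2% unconfined and 2.05 to 5.88% confined. Dusp1 made up 35.9 to 36.3% in unconfined WT, 42.2 to 63.0% in unconfined WKO, 53.4 to 65.7% in confined WT and 59.2 to 66.2% in confined WKO. These shares also move with the sum itself, which was 2147 and 2304 in unconfined WT, 4795 to 9011 in confined WT, 2130 and 2400 in unconfined WKO and 4033 to 11059 in confined WKO, with Dusp1 the largest part. In WKO the level of Dusp6 overlapped between confined and unconfined libraries and did not pass, although its shares did not overlap. The share of Dusp5 was 4.05 to 7.03% and 3.50 to 3.91% in the unconfined groups, and 9.03 to 14.5% and 10.2 to 14.3% in the confined groups, WT first. The ratio of Dusp1 to Dusp6 reads, which does not depend on library size, was 1.05 and 1.11 in unconfined WT and 7.29, 9.14 and 20.6 in confined WT. The WKO ratios were 1.19 and 4.40 unconfined and 13.7, 7.16 and 21.9 confined. This ratio did not overlap between confined and unconfined libraries of either genotype.

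**Figure D3:**
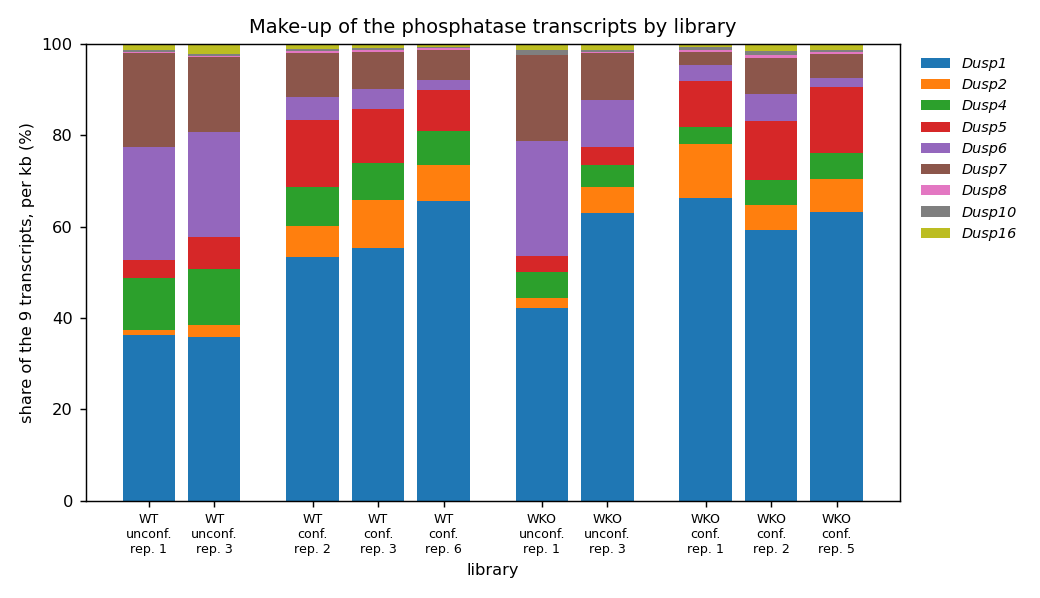
Share of each of the 9 phosphatase transcripts (vertical axis, percent of their summed reads per kilobase) in each of the 10 libraries (horizontal axis). Dusp1 fills 35.9 to 36.3% of the stack in unconfined WT and 53.4 to 65.7% in confined WT, and Dusp6 shrinks from 23.0 to 24.7% to 2.27 to 5.21%.

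The second question was whether loss of WASp altered these genes. With limma, 0 of the 9 members passed between WKO and WT in unconfined cells, where 0.145% of all genes did (0.0482% higher and 0.0963% lower). In confined cells 0 of 9 passed, where 2.59% of all genes did (1.38% higher and 1.20% lower). edgeR also called 0 in both, and DESeq2 called 1 (Dusp8) in unconfined and 0 in confined cells. Over all genes DESeq2 called 179 in unconfined and 775 in confined cells, where limma called 18 and 322. At an unadjusted p below the threshold, limma had 2 members in unconfined cells (9.60% of all genes) and 0 in confined cells (16.8%). The 2 were Dusp4 and Dusp8, both lower in WKO. Dusp4 was at 707 and 726 normalized reads in unconfined WT and at 330 and 325 in WKO, 4 values without overlap and with little spread, and the log2 difference was -1.13 (-1.97 to -0.29, adjusted p = 0.348). Dusp8 differed by -2.41 (-3.87 to -0.96, adjusted p = 0.226), from the 19 reads of the WKO libraries described above. Dusp4 passed in a fit of only the unconfined libraries (adjusted p = 0.00906) and without confined WKO replicate 5 (0.0202). Those fits called 189 and 141 of all genes. Dusp8 passed with DESeq2 (adjusted p = 0.0482) and without unconfined WKO replicate 3 (-3.74, adjusted p = 0.0357). In these cells limma also called 1 of 4 tested B-lineage markers higher in WKO, whose part was not tested. Dusp1 was the 1 member wholly higher in unconfined WKO, where 22.2% of all genes were wholly higher, and the 2 wholly lower stand beside 22.7%.

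In confined cells the difference between WKO and WT had wide intervals for the members called with confinement. On the log2 scale it was 0.26 for Dusp1 (-0.55 to 1.07, adjusted p = 0.794) and 0.05 for Dusp2 (-1.12 to 1.22, adjusted p = 0.979). It was 0.24 for Dusp5 (-0.46 to 0.94, adjusted p = 0.775), 0.04 for Dusp6 (-0.45 to 0.54, adjusted p = 0.952) and 0.21 for Dusp8 (-0.99 to 1.40, adjusted p = 0.899). These values do not show that the genotypes were alike. Dusp10 was the 1 member wholly higher in confined WKO (0.76, -0.05 to 1.56, adjusted p = 0.329), against 10.7% of all genes, and 0 were wholly lower, against 10.4%. Dusp4 (-0.56, -1.25 to 0.12, adjusted p = 0.405) and Dusp7 (-0.53, -1.17 to 0.11, adjusted p = 0.401) were lower on average but overlapped. Both passed without confined WKO replicate 5, at -1.02 (adjusted p = 0.00913) for Dusp4 and -0.90 (adjusted p = 0.0384) for Dusp7, and with array weights, at -1.02 (0.00588) and -0.58 (0.0451). Over all genes these fits called 419 and 1948, against 322 in the fit of all libraries. In confined cells limma called 4 of 8 tested stromal, 2 of 4 B-lineage, 1 of 3 dendritic and 2 of 8 macrophage markers higher in WKO and 0 lower. Their part in the phosphatase values was not tested.

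Whether confinement acted differently in the 2 genotypes was tested as the difference between the WKO and WT changes. It passed for 0 of 9 members with limma, edgeR and DESeq2, and for 0 of all genes tested with limma. Dusp8 was the 1 member with an unadjusted p below the threshold (2.62, 0.74 to 4.50, adjusted p = 0.999), where 2.07% of all genes had one. For Dusp2 the estimate was -1.05, for Dusp16 0.77, for Dusp5 0.74, for Dusp6 0.59 and for Dusp4 0.56. That Dusp6 passed in WT and Dusp8 in WKO is thus not shown to be a difference between genotypes.

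**Figure D4:**
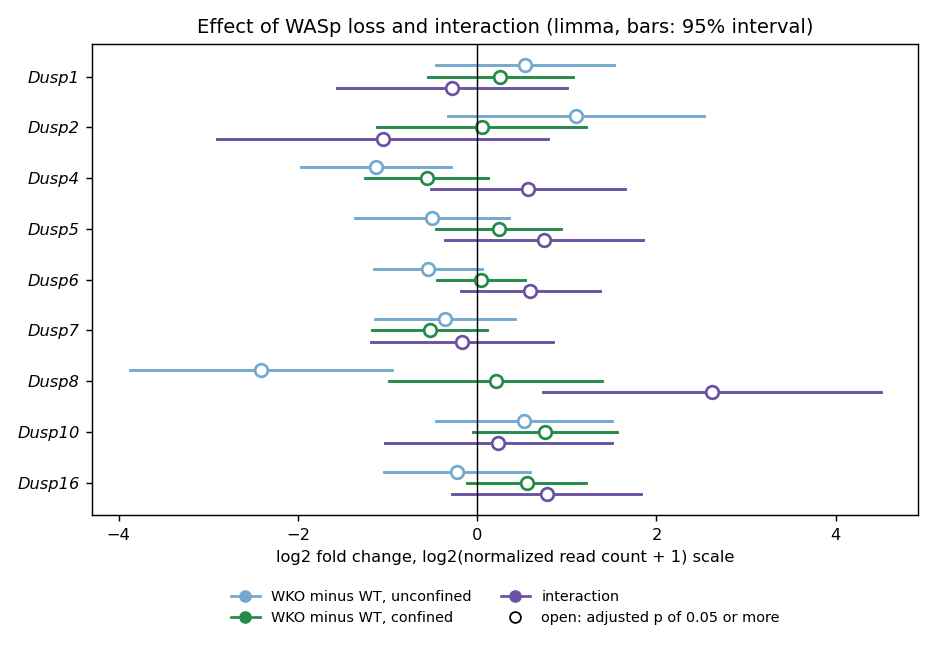
Log2 difference between WKO and WT (horizontal axis) for each of the 9 genes in unconfined and in confined macrophages, with 95% confidence intervals as bars. A further series, labelled interaction, is the change with confinement in WKO minus that in WT. All points are open, since 0 of 9 passed at an adjusted p of 0.05 in either state or for the interaction.

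Libraries of a confined group differed from each other in the same direction for most members. Confined WT replicate 6 had the highest value of its group for 8 of the 9, all but Dusp6, while it was highest for 35.9% of all genes tested. Confined WKO replicate 5 was highest of its group for 7 of 9, against 38.2% of all genes. Replicate 6 was the deepest library of its group (19216408 reads) and replicate 5 the shallowest of its group (13491262). Each had the highest stromal marker sum of its group (706 in replicate 6 and 9051 in replicate 5). Each also had the lowest neutrophil and progenitor sum (2545 and 6971) and the lowest B-lineage sum (410 and 1572). The macrophage marker sum was the lowest of its group in replicate 6 (181744) and the highest in replicate 5 (314547). The part of these cells in the phosphatase values was not tested.

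The rest of the MAP kinase pathway was read from lists of 107 genes, of which 92 were expressed highly enough to be tested. With confinement 2 of the 92 rose in WT, where 0.891% of all genes did, and 5 in WKO, where 1.49% did, and 0 fell in either. The median log2 fold change over the 92 was 0.11 in WT and 0.16 in WKO. Map3k8, the kinase that feeds ERK downstream of microbial receptors, rose in both (1.47, adjusted p = 0.0178 in WT, and 1.40, adjusted p = 0.0181 in WKO). Ets2, a transcription factor that ERK phosphorylates, also rose in both (1.03, adjusted p = 0.0300, and 1.76, adjusted p = 0.00119). In WKO Mapk6, an atypical MAP kinase (0.99, adjusted p = 0.0433), Map2k3, which activates p38 (0.86, adjusted p = 0.0192), and Mknk2, a kinase downstream of ERK and p38 (0.45, adjusted p = 0.0399), rose as well. Between genotypes in confined cells 1 of the 92 differed, where 2.59% of all genes did: Rps6ka2, an ERK-activated kinase, was lower in WKO (-1.31, adjusted p = 0.00256).

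Other dual-specificity phosphatases, mostly atypical members of the family that lack the MAP kinase-binding domain, were read in the same way. Of 16 listed, 12 were tested and limma called 0 with confinement in WT and 0 in WKO, with 2 and 4 at an unadjusted p below the threshold, where 12.2% and 14.1% of all genes were, and medians of -0.08 and -0.03. Dusp14 had the highest estimates among them, chosen for mention after its values were seen, at 1.96 in WT (adjusted p = 0.166) and 2.03 in WKO (adjusted p = 0.129). The Sprouty, Spred and Errfi1 feedback inhibitors, which like Dusp6 restrain growth factor signalling to ERK, had 6 of 8 genes tested and 0 called in either genotype, with 2 in WT and 4 in WKO at an unadjusted p below the threshold, read against the same shares. Their medians were 0.24 in WT and 0.71 in WKO. Spry1 was at 1.74 (adjusted p = 0.249) and 2.52 (adjusted p = 0.0697), and Errfi1 at 1.94 (adjusted p = 0.244) and 2.41 (adjusted p = 0.117). Both were picked after their values were seen. Spred3 of the same list had the sign of Dusp6, at -0.38 in WT (adjusted p = 0.664) and -0.29 in WKO (adjusted p = 0.708). Of the 7 MAP2 kinases 0 passed in WT and 1 in WKO, and of the 10 tested MAP kinases 0 and 1.

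**Figure D5:**
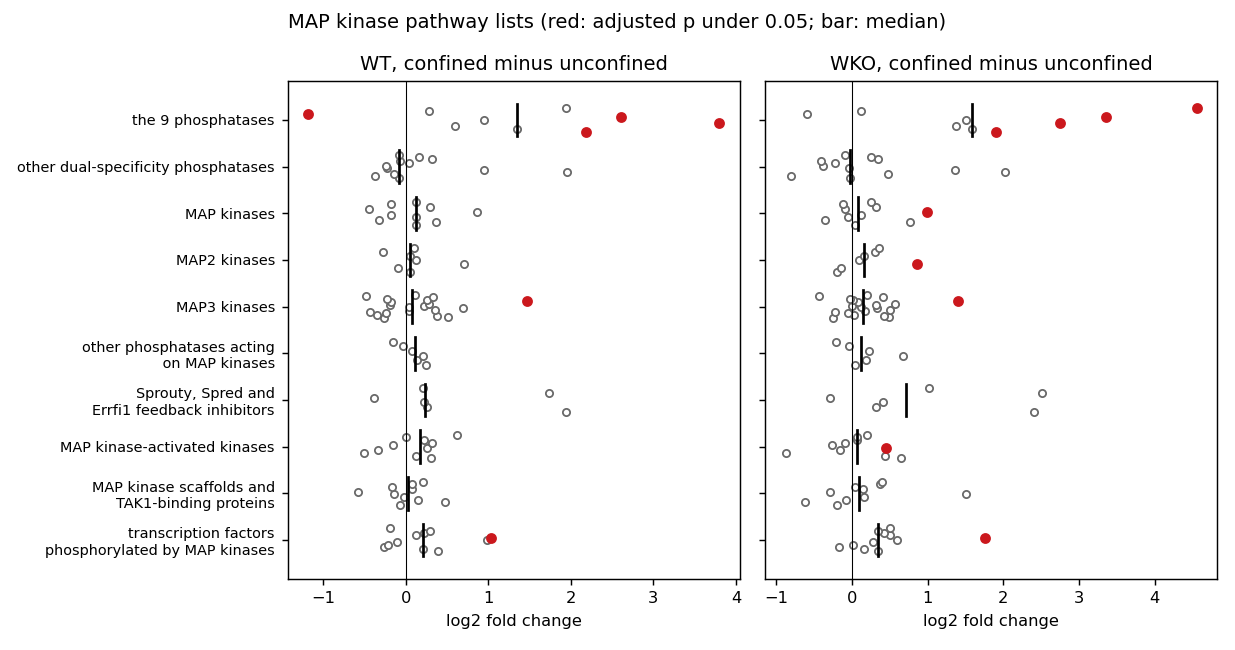
Log2 fold change with confinement (horizontal axis) of each tested gene in each MAP kinase pathway list (rows), in WT and in WKO macrophages. Points are genes, bars are medians, and filled red points passed at an adjusted p of 0.05. The row of the 9 phosphatases has 4 filled points in each genotype, and the rows below it together have 2 in WT and 5 in WKO.

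Genes with the most similar profile over the 10 libraries were taken by Pearson correlation of log2 levels among 10217 genes. For Dusp1 they were Zfp36 (0.994), Btg2 (0.987) and Csrnp1 (0.986). For Dusp2 they were Junb (0.984), Cxcl1 (0.970) and Socs3 (0.967), and for Dusp5 they were Maff (0.995), Ptgs2 (0.986) and Gem (0.983). The nearest to Dusp6 were Rad9a (0.935), Tor4a (0.931) and Ppp1r37 (0.927), and to Dusp8 Paf1 (0.977), Usp36 (0.976) and Gpr132 (0.951). Among the members Dusp1 correlated with Dusp2 at 0.964 and with Dusp5 at 0.921, and Dusp6 with Dusp2 at -0.889 and with Dusp1 at -0.861. These are descriptions over libraries that share the contrast between confined and unconfined cells and are not independent of it.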

How the data were processed

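10 bulk mRNA libraries of macrophages were analysed from 1 table of normalized read counts. Per the submitters' processing notes the tools were FastQC, Trim Galore and STAR and the build GRCm38 (mm10). The counting tool, annotation and strand are not given in the sources used here, and 4981 identifiers of the table are not in GENCODE M21. The authors deposited a signal for each gene, its read count divided by 1 factor per library. Multiplying back gave whole reads for 100% of values within 1e-06. Libraries were grouped by the labels, and the 9 members, the pathway and marker lists and the tests were chosen with earlier results of these data known.

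Log2(normalized count + 1) of genes with a mean of at least 10 was fitted with limma 3.58.1 (R 4.3.3), with 1 mean per group, all 10 libraries, trended empirical Bayes and 6 residual degrees of freedom. 5 comparisons were made, each with Benjamini-Hochberg adjustment over 12455 genes and a threshold of 0.05. Fold changes are on this scale, except those given for DESeq2. The added 1 shrinks log ratios between low values. A difference of mean logs also need not match the log of the ratio of means. Each member is named, as are Was and, from each pathway list and confinement comparison, up to 2 called genes in each direction with the smallest p and a mean of at least 50. Rps6ka2, Dusp14, Spry1, Errfi1 and Spred3 were named after their values were seen. Genes most like a called member were the 3 with the highest correlation among genes above the same mean.

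Alternatives were TMM and upper-quartile scaling, edgeR 4.0.16 and DESeq2 1.42.0 on the recovered reads, other pseudocounts, filters and fits, and leaving out each library. edgeR called 116 genes for confinement in WT, 186 in WKO, 15 and 319 for genotype in unconfined and confined cells, and 0 for the difference of the 2 confinement changes. Transcript structures came from GENCODE M21 and upstream sequences from RefSeq (GRCm38.p6). Overlap of member transcripts with other genes was checked with blastn 2.17.0 at 95% identity, and Dusp5 was the member with at least 20% of its length covered.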

Additional observations from a re-analysis of the deposited data

How the results depend on the processing

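Of the 9 members, 4 passed for confinement in WT, 4 in WKO, and 0 in each genotype comparison and in the difference of the confinement changes. In WT the count was 2 with no filter on low values 0 without the variance trend and 6 with only the groups compared, where Dusp4 and Dusp8 were added. In WKO it was 2 with edgeR, 2 with no filter, 2 without the trend, 1 with only the groups compared, 7 with DESeq2 and 7 with array weights. For genotype in unconfined cells it was 1 with DESeq2 and 1 with only the groups compared, and in confined cells 2 with array weights. Leaving out 1 library gave 0 to 5 in WT, 2 to 6 in WKO, 0 to 1 for genotype in unconfined and 0 to 2 in confined cells. TMM, upper-quartile scaling, pseudocounts of 0.5 and 5 and a mean of at least 50 left each count as reported. Over all genes, 144 passed for confinement in WT (20 to 455 over the alternatives), 214 in WKO (33 to 1735), 18 for genotype in unconfined cells (4 to 245), 322 in confined cells (53 to 1948), and 0 for the difference under each alternative. In WT these totals were 97 with no filter, 20 without the trend and 455 with only the groups compared. In WKO they were 186 with edgeR, 204 with no filter, 45 without the trend and 33 with only the groups compared. DESeq2 gave 486 in WKO, and array weights gave 1735. For genotype in unconfined cells DESeq2 gave 179 and a fit of only the groups compared gave 189. In confined cells array weights gave 1948. Leaving out 1 confined library gave 60 to 397 of all genes in WT and 126 to 1043 in WKO. For genotype those fits gave 7 to 141 in unconfined and 58 to 701 in confined cells. The 6 members in WKO came from the fit without confined WKO replicate 1, which called 1043 genes against 214.

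Libraries with the same number had deviations from their group means that correlated at -0.11 to 0.08. This check cannot decide pairing, since deviations in a group of 2 mirror each other and pairs with unlike numbers were not computed. The labels do not say that equal numbers share an animal or a day, so the numbers were not taken to pair libraries. A replicate block was fitted as an alternative. Replicate numbers 5 and 6 each mark a single library, so the block fits confined WKO replicate 5 and confined WT replicate 6 exactly. Those libraries then add nothing to the comparisons, so the block differs from the main fit by more than pairing. With the block, 4 members passed in WT, where Dusp4 (0.88, adjusted p = 0.0155) took the place of Dusp6 (-0.91, adjusted p = 0.0762). In WKO 6 passed, adding Dusp4 (adjusted p = 0.00140) and Dusp16 (0.0433). For genotype 2 passed in unconfined cells, Dusp4 (adjusted p = 0.00162) and Dusp8 (0.0379), and 2 in confined cells, Dusp4 (0.0161) and Dusp7 (0.0334). Over all genes the block called 216 for confinement in WT and 222 in WKO, against 144 and 214 without it. For genotype it called 245 in unconfined and 294 in confined cells, against 18 and 322. Under the block the change of Dusp7 in WKO was -0.46, the confined genotype difference of Dusp6 -0.29, and the difference of confinement changes of Dusp10 -0.17, each with its sign turned.

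Signs turned for values that did not pass. With array weights the confined genotype difference was -0.36 for Dusp1, -0.98 for Dusp2, -0.30 for Dusp5 and -0.12 for Dusp8. When each library was left out in turn, that difference ranged from -0.081 to 0.69 for Dusp1, -0.31 to 0.69 for Dusp2, -0.20 to 0.60 for Dusp5, -0.052 to 0.093 for Dusp6 and -0.097 to 0.46 for Dusp8. The unconfined genotype difference ranged from -1.11 to 0.018 for Dusp6, -0.21 to 1.26 for Dusp10 and -0.58 to 0.13 for Dusp16. The change of Dusp7 in WKO ranged from -0.26 to 0.45. The difference of confinement changes ranged from -0.65 to 0.16 for Dusp1, -0.54 to 0.17 for Dusp7 and -0.50 to 0.97 for Dusp10. The cause was not tested. Depth limits Dusp8 in unconfined WKO, where 1 library had 2 reads; other members had at least 20 reads in every library. The unconfined groups have 2 libraries each, so leaving 1 out assumes that the lone library varies like the other groups.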
